A study of Mus musculus with 24 samples.

Results

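The m6A immunoprecipitation of untreated WT tumour myeloid cells was examined here by comparing its 3 libraries (m6A IP) with the 3 Input libraries of the same group (WT Ctrl), which is 6 of the 24 libraries of the study. The libraries were chosen by their labels alone. A gene was tested where at least 3 of the 6 libraries held at least 10 counts, which kept 15468 of 54446 gene identifiers. Both library types came from polyadenylated RNA of CD11b+ myeloid cells sorted from MC38 tumours, a transplanted mouse colon carcinoma. The WT mice carried floxed Ythdf2 alleles (Ythdf2 fl/fl) on the C57BL/6J background and no Cre, and the study's methods describe young adult mice of both sexes. Tumours of the Ctrl groups were not irradiated. The cKO Ctrl group, used below for comparison, differed by a Cre gene at the Lyz2 locus, which drives deletion of Ythdf2 in myeloid cells that express Lyz2. The methods describe, for irradiated WT tumours, cells of several pooled mice per replicate, and call the replicates technical in that place and biological in another, so that p-values measure the spread between libraries, which may be technical.

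N6-methyladenosine (m6A) is the most common internal modification of mRNA. A nuclear complex built around METTL3 and METTL14 writes it, FTO and ALKBH5 can remove it, and proteins with a YTH domain, among them YTHDF2, bind it and direct the transcript to decay, translation or export. In many mammalian tissues m6A lies in the sequence GGACT or near variants of it, often in long exons and around the stop codon. In a MeRIP-seq assay the RNA is broken into fragments, an antibody against m6A collects fragments, and the level of a gene in the IP library is set against its level in the Input library.

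Input libraries held between 71941097 and 76802673 gene counts and IP libraries between 70905035 and 73155350. Mitochondrial genes took 4.61 to 4.84% of the Input counts and 0.266 to 0.271% of the IP counts. Marker genes are counted here as higher or lower in IP by the test described below. By that test 40.9% of all genes tested were higher and 40.5% lower in IP. Of the markers of monocytes and macrophages, 13 of 13 passed the count filter, with 9 of 13 genes lower in IP. Their summed level was 27828 to 28334 CPM (counts scaled to a common library total, here without TMM factors) in Input and 20440 to 21119 in IP. Most of that sum was Lyz2, a gene of myeloid cells at large, at up to 20722 CPM, so the label of myeloid cells held. Dendritic cell markers summed to 405 to 415 CPM in Input and 349 to 358 in IP, with 3 of 5 tested genes higher and 2 lower in IP. Markers of fibroblasts (at most 0.575 CPM in sum, Col1a2, Col3a1, Dcn and Lum at 0), erythroid cells (at most 0.0668 CPM) and T and NK cells (at most 2.39 CPM, Cd3e and Ncr1 at 0) were at or near 0 in the 6 libraries. B cell markers summed to 6.41 to 9.05 CPM. Neutrophil markers summed to 3606 to 3731 CPM in Input and 957 to 977 in IP, with 11 of 11 genes lower in IP. Primary granule markers summed to 81.7 to 90.4 and 27.9 to 29.7 CPM, platelet markers to 197 to 208 and 68.9 to 73.1 (Gp1bb at 0), and endothelial markers, of which Vwf made up nearly the whole sum, to 179.8 to 181 and 33.0 to 35.3. Epithelial markers went the other way, from 6.43 to 8.05 CPM in Input to 102 to 104 in IP. That sum was Cdh1 (E-cadherin, also made by some dendritic cells and macrophages), while Krt8 and Krt19 were at 0. The part of other cell types in the ratios below was not tested. The methods leave unsaid if each IP had an Input from its own pool of RNA, so a difference between the RNA of the Input and IP libraries cannot be told apart here from capture by the antibody. In bulk RNA, fewer cells of a type and less RNA per cell cannot be told apart either.

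Levels below are CPM with totals scaled by TMM factors over the 6 libraries, unless a sentence says otherwise. The ratio is the log2 of IP over Input from edgeR's quasi-likelihood fit, given with its SE. A gene with a p under 0.05 after Benjamini-Hochberg adjustment is called, and is termed enriched where the ratio was above 0 and depleted where it was below.

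The antibody step was accompanied by a change in most transcripts. Of the 15468 genes, 6330 (40.9%) were enriched and 6261 (40.5%) depleted. At least 2-fold enrichment was found for 3254 genes (21.0%) and at least 2-fold depletion for 3256 (21.0%). The levels of the 3 IP and the 3 Input libraries did not overlap in 12843 genes (83.0%). The median ratio was 0.01, the middle 50% of genes lay between −0.85 and 0.84, and the extremes were −10.42 and 13.60. The replicates were close (common biological coefficient of variation 4.14%), so that small ratios passed the test, and the size of a ratio says more than its call. The zero point of the ratio depended on the scaling. Library totals alone moved the median of all genes by 0.25, centring on the 8727 tested genes that held no peak in any of the 3 lists moved it by 0.66, and RLE size factors by −0.03. The share of called genes that were enriched was 50.3% with TMM, 59.4% with library totals, 73.3% with centring and 49.1% with RLE. With centring 9511 of the 15468 genes were enriched and 3464 depleted. Counts marked below as centred stand beside these, not beside the TMM shares. Of the tested genes, 352 had fewer than 10 counts in each Input library and 482 had fewer than 10 in each IP library, and these had to differ.

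**Figure D1:**
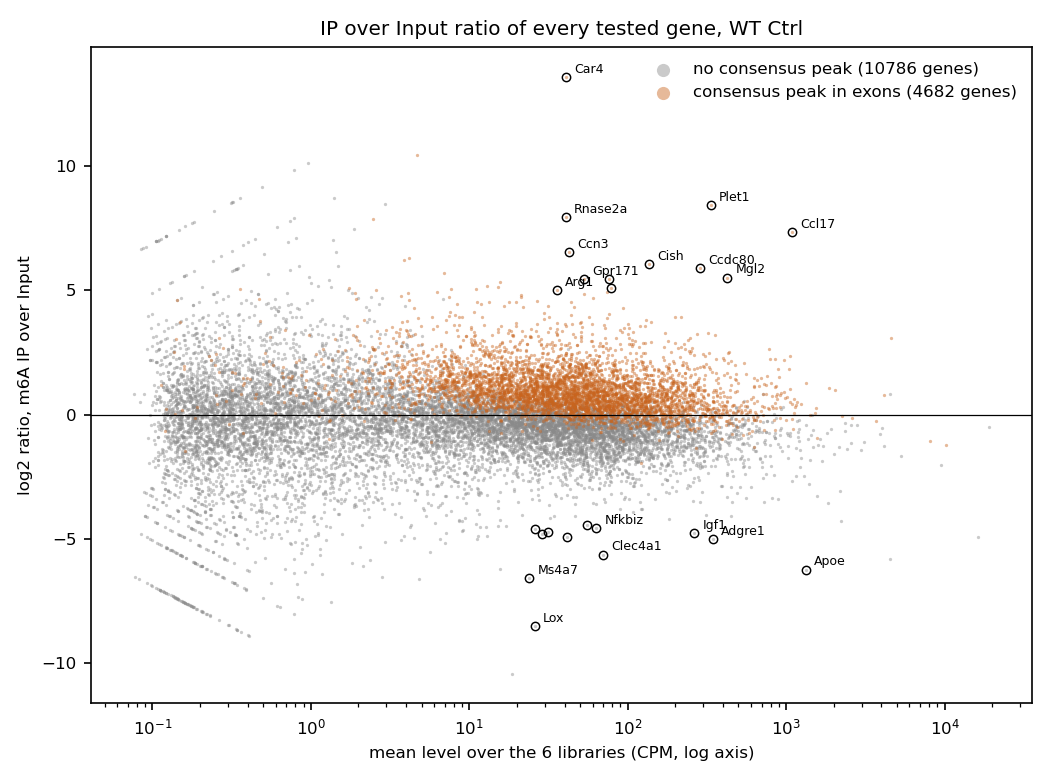
Each point is 1 of the 15468 tested genes, placed by its mean level over the 6 WT Ctrl libraries (CPM, log axis) and its log2 ratio of m6A IP over Input, with genes holding a consensus peak in orange and the 12 largest and 12 smallest ratios circled. The 4682 peak-holding genes lie mostly above 0, and Car4, Plet1, Ccl17, Apoe and Lox stand far from the other genes.

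The 12 largest ratios named here belonged to transcripts that stood at 18.7 CPM or less in every Input. Each thus reached the naming limit, a mean of 20 CPM over both library types, through its IP level. By the rule used for naming (called, mean level of at least 20 CPM, no overlap between library types), the 12 largest were those of Car4, Plet1, Rnase2a, Ccl17, Ccn3, Cish, Ccdc80, Mgl2, Gpr171, Asgr2, Adra2a and Arg1. Car4 (ENSMUSG00000000805.18, chromosome 11, 84957786 to 84966044, plus strand of GRCm38) encodes a membrane carbonic anhydrase. It was at 83.6, 83.2 and 77.4 CPM in the IP libraries and at 0, 0 and 0.0146 CPM in the Inputs. The Inputs held 1 Car4 count in all and the IP libraries 19240, a ratio of 16687 with a 95% exact counting interval of 2995 to 659121. The fitted ratio of 13.60 (SE 0.15, edgeR adjusted p 7.9e-26) depends on the prior count. Car4 was one of the 352 genes that passed the count filter through IP alone and had to differ.

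Plet1 (ENSMUSG00000032068.14, chromosome 9, 50494525 to 50505482, plus strand), a surface protein of epithelia and of some dendritic cells, stood at 672, 656 and 675 CPM in IP and at 1.98, 2.03 and 1.73 in Input. Its ratio was 8.44 (SE 0.04, edgeR adjusted p 4.6e-31), a 348-fold difference. Ccl17 (ENSMUSG00000031780.2, chromosome 8, 94810453 to 94812036, plus strand), a chemokine that attracts CCR4-bearing T cells, stood at 2209, 2196 and 2071 CPM in IP against 12.6, 13.8 and 13.1 in Input. The ratio of Ccl17 was 7.36 (SE 0.04, edgeR adjusted p 2.7e-31). Both genes were thus apart by far more than the spread of either library type. Mgl2, a lectin of dendritic cells and alternatively activated macrophages, was at 833, 841 and 821 CPM in IP and at 17.6, 18.3 and 18.7 in Input. Cish, an inhibitor of cytokine receptor signalling through STAT5, was at 269, 266 and 268 CPM in IP and at 5.25, 3.77 and 3.16 in Input. Arg1, the arginase of suppressive myeloid cells, was at 74.3, 68.4 and 65.6 CPM in IP and at 1.94, 1.95 and 2.52 in Input. The remaining genes of the 12 had ratios between 5.09 for Adra2a, an adrenergic receptor, and 7.96 for Rnase2a, a secreted ribonuclease.

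The smallest ratios were seen for Lox, Ms4a7, Apoe, Clec4a1, Adgre1, Adam19, Il12b, Igf1, Tanc2, Pgap1, Nfkbiz and mt-Nd6. Apoe and Adgre1 among these belong to the list of monocyte and macrophage markers, of which 4 of 13 were enriched and 9 depleted (5 and 6 when centred). Over the genes tested 40.9% were enriched and 40.5% depleted (9511 and 3464 of 15468 genes when centred). Apoe (ENSMUSG00000002985.16, chromosome 7, 19696109 to 19699188, minus strand), the lipid carrier apolipoprotein E, stood at 2608, 2718 and 2564 CPM in Input and at 36.9, 36.7 and 31.1 in IP. Its ratio was −6.24 (SE 0.05, edgeR adjusted p 2.7e-28). Adgre1 (ENSMUSG00000004730.15, chromosome 17, 57358691 to 57483527, plus strand), the F4/80 antigen, stood at 678, 649.6 and 678 CPM in Input and at 19.9, 20.6 and 21.6 in IP, a ratio of −5.01 (SE 0.03, edgeR adjusted p 5.5e-29). Apoe was 75.4 times and Adgre1 32.3 times lower in IP. Lox, a collagen cross-linking enzyme, had 10599 counts over the Inputs and 33 over the IP libraries, a 370-fold lower level in IP with a 95% exact counting interval of 264 to 538. Igf1, a growth factor made by tissue macrophages, stood at 504, 509.7 and 509 CPM in Input and 20.7, 18.1 and 16.6 in IP. Nfkbiz, a nuclear regulator of NF-kB target genes, stood at 119, 121 and 125 CPM in Input and 4.74, 5.41 and 5.35 in IP. Ms4a7, Clec4a1, Adam19, Il12b, Tanc2, Pgap1 and the mitochondrial mt-Nd6 had ratios between −6.58 and −4.45.

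**Figure D2:**
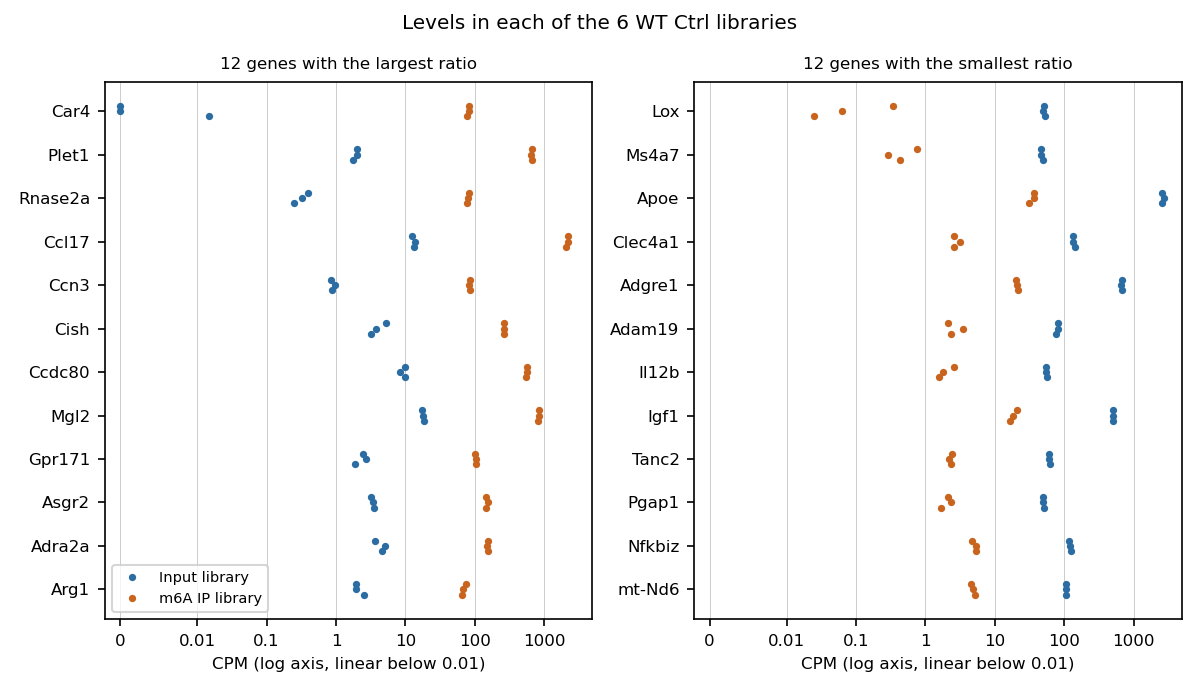
Points show the level (CPM, log axis, linear below 0.01) of each named gene in the 3 Input libraries (blue) and the 3 m6A IP libraries (orange) of WT Ctrl, for the 12 largest and the 12 smallest ratios. The absence of overlap between library types was part of the naming rule, and Car4 was listed at 0 in 2 of the 3 Inputs.

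The separation of the named genes at both ends was also seen in the other groups of the study. This was looked at after the values of the 6 libraries had been seen, with levels relative to unscaled totals. Over the 12 Inputs of all 4 groups (Ctrl and irradiated, both genotypes) Car4 lay between 0 and 0.261 CPM, and over the 12 IP libraries between 84.9 and 211. Plet1 lay between 1.59 and 4.07 CPM over the 12 Inputs and between 532 and 965 over the 12 IP libraries. Apoe lay between 2122 and 2683 CPM over the Inputs and between 21.7 and 47.5 over the IP libraries. For each of the 24 named genes the 12 Inputs and the 12 IP libraries did not overlap. Absence of overlap in the 6 WT Ctrl libraries was part of the naming rule, and 83.0% of all tested genes met it there. The 12 Inputs and 12 IP libraries include those 6. The share of all genes without overlap over these 12 and 12 was not counted, so the count of named genes has no background to stand beside.

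The genes of the m6A machinery themselves were mostly enriched. Of 9 writers 7 were enriched and 1 depleted (median 0.57, against 0.01 for the genes tested), beside backgrounds of 40.9% and 40.5%. Virma, the largest subunit of the writer complex, went from 94.4, 93.3 and 93.9 CPM in Input to 222, 227 and 219 in IP, a ratio of 1.25 (SE 0.03, edgeR adjusted p 1.6e-20). Wtap, the subunit that holds the complex in nuclear speckles, had a ratio of 1.12 (SE 0.03, edgeR adjusted p 7.7e-20). The catalytic subunit Mettl3 had a ratio of −0.08 (above 0 with library totals alone or centring) and was not called, and its partner Mettl14 had 0.15. Cbll1 was the depleted writer (−0.14, above 0 with library totals alone or centring), and Zc3h13, Mettl16, Rbm15 and Rbm15b lay between 0.38 and 0.99. The 2 erasers parted, Fto with 0.38 and Alkbh5 with −1.10 (SE 0.03, edgeR adjusted p 7.2e-19), its levels being 174, 165 and 168 CPM in Input and 79.2, 78.5 and 79.5 in IP.

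Of 10 readers 7 (70%) were enriched and 3 (30%) depleted, beside 40.9% and 40.5% of the genes tested. Ythdf2 (ENSMUSG00000040025.17, chromosome 4, 132184912 to 132212303, minus strand) stood at 104, 105.4 and 107 CPM in Input and at 209.9, 207 and 199.8 in IP, a ratio of 0.96 (SE 0.03, edgeR adjusted p 3.0e-18). The highest Input lay well below the lowest IP library. Ythdc1, the nuclear reader, had 0.82, Ythdf3 0.56 and Ythdf1 0.28, so the 3 YTHDF genes were enriched with Ythdf2 highest. Igf2bp2, a reader that stabilises its targets, was at 44.4, 42.6 and 44.1 CPM in Input and at 9.04, 9.36 and 7.52 in IP, the lowest ratio of the readers (−2.34, SE 0.07, edgeR adjusted p 1.1e-18). Genes of deadenylation and decay, the machinery to which YTHDF2 delivers transcripts, lay 0.52 below the median of the genes tested, with 3 of 23 enriched and 18 depleted (13 and 7 when centred on genes without a peak). Cnot6l, a deadenylase, and Edc4, a decapping scaffold, had the lowest ratios (−1.56 and −1.55), and Edc3 the highest (0.67).

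Negative regulators of cytokine and NF-kB signalling were of interest in the study. Of the 5 that its text names, 4 were enriched and 1 depleted, and 4 held consensus peaks. Over the genes tested 40.9% were enriched and 40.5% depleted. A consensus peak was held by 30.3% of the genes tested and by 65.6% of the enriched ones. The study chose these genes partly on these samples, so their direction is no independent evidence. Tnfaip8l2 (ENSMUSG00000013707.3, chromosome 3, 95139521 to 95142360, minus strand), a brake on Toll-like and T cell receptor signalling, stood at 33.1, 33.0 and 35.6 CPM in Input and at 192, 189.9 and 191 in IP, a ratio of 2.49 (SE 0.03, edgeR adjusted p 4.9e-24). Smpdl3b, a lipid-modulating phosphodiesterase that dampens Toll-like receptor signalling, stood at 28.7, 26.2 and 24.8 CPM in Input and at 91.7, 92.4 and 97.1 in IP (ratio 1.82, SE 0.05, edgeR adjusted p 2.2e-19). In both genes the IP libraries were more than 3-fold above the Inputs. Metrnl, a secreted regulator of metabolism and inflammation, went from 92.1, 85.7 and 88.2 CPM to 139, 139.7 and 138 (ratio 0.65, SE 0.03, edgeR adjusted p 2.4e-14). Socs3, the feedback inhibitor of IL-6 and STAT3 signalling, was at 83.3, 84.1 and 80.6 CPM in Input and at 74.0, 78.6 and 78.1 in IP, a ratio of −0.10 (SE 0.04, edgeR adjusted p 0.011) that was above 0 with library totals alone or centring, and it held no consensus peak.

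The SOCS family, which blocks signalling from cytokine receptors, ranged widely, with 6 of 8 genes (75%) enriched and 2 (25%) depleted. Over the genes tested 40.9% were enriched and 40.5% depleted. Cish had the highest ratio (6.05), followed by Socs6 (2.92), Socs1 (1.98) and Socs2 (1.79). Socs4 (0.13) and Socs5 (0.14) were close to the median of the genes tested, and Socs7 (−0.79) was lowest. The 15 NF-kB inhibitors split into 6 enriched (40%) and 8 depleted (53.3%) genes (8 and 7 when centred). They ranged from Tnfaip8l2 (2.49) and Nlrx1 (1.65) down to Nlrc3 (−3.33) and Nfkbiz (−4.56). The feedback inhibitor Nfkbia (−0.88) was depleted, whereas the deubiquitinase Tnfaip3 (−0.03, above 0 with library totals alone or centring) was not called. In contrast to these mixed lists, 10 of 10 genes for NF-kB subunits and their kinases were depleted, 6 of them at least 2-fold, and none held a consensus peak. Their median was −1.16 (−0.50 when centred, where 7 stayed depleted and 1 was enriched). Rel, the c-Rel subunit, stood at 163, 162 and 165 CPM in Input and at 32.8, 31.3 and 33.5 in IP, a ratio of −2.33 (SE 0.03, edgeR adjusted p 1.4e-23). Nfkb2 (−2.22) and Relb (−2.15), the subunits of the alternative pathway, lay near Rel, and the kinase Ikbke (−0.53, above 0 when centred) was closest to 0.

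Immediate early genes, whose short-lived transcripts appear within minutes of a stimulus, were called in both directions. Of 26 tested 13 were enriched and 11 depleted, which is 50% and 42.3% beside 40.9% and 40.5% of the genes tested. When centred, 20 were enriched and 5 depleted, beside 9511 and 3464 of the 15468 genes tested. Klf4, a transcription factor of monocytes, went from 14.2, 15.3 and 15.5 CPM in Input to 186, 183 and 188 in IP (ratio 3.63, SE 0.04, edgeR adjusted p 7.1e-26), and Egr2 had 3.02. Fos, a subunit of AP-1, went the other way, from 77.5, 76.4 and 76.3 CPM to 9.84, 10.4 and 9.002 (ratio −2.98, SE 0.05, edgeR adjusted p 1.7e-22), and the phosphatase Dusp2 had −2.78. Among myeloid transcription factors 11 of 24 (45.8%) were enriched and 13 (54.2%) depleted (16 and 7 when centred). Irf4, a factor of alternatively activated macrophages and dendritic cells, had the highest ratio (2.56), followed by the granulocyte factor Cebpe (2.36). Maf (−3.55), a factor of resident macrophages, and the oxysterol receptor Nr1h3 (−2.58) had the lowest.

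Chemokine ligands of the CC and CXC classes had different medians and overlapping ranges, and the difference between classes was not tested. Of 11 tested CC chemokine ligands 8 (72.7%) were enriched and 2 (18.2%) depleted, beside 40.9% and 40.5% of the genes tested. The median of the CC ligands was 1.77. Of the tested CXC ligands 8 of 8 were depleted, with a median of −1.79 (−1.12 when centred, where 7 stayed depleted). Ccl6 was among the most abundant IP transcripts, at 960.0, 959.9 and 976 CPM in Input and 8454, 8529.8 and 7734 in IP (ratio 3.09, SE 0.03, edgeR adjusted p 6.2e-27). Ccl2, the ligand of CCR2 that recruits monocytes, went from 4.70, 4.91 and 4.18 CPM to 146, 146 and 135 (ratio 4.95, SE 0.05, edgeR adjusted p 1.1e-25). Ccl5, which attracts T cells, fell from 541, 493 and 542 CPM to 45.5, 47.1 and 46.2 (ratio −3.50, SE 0.04, edgeR adjusted p 3.3e-26). Ccl17 and Ccl22, which share the receptor CCR4, had ratios of opposite sign, 7.36 and −1.32. Ccl3 (−0.06, above 0 with library totals alone or centring) was not called. Among the CXC ligands Cxcl1 (−4.88), a neutrophil attractant, was lowest and Cxcl10 (−0.75) highest. The platelet genes Ppbp (−3.46) and Pf4 (−1.62) belong to this list as well.

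Of 10 tested chemokine receptors 3 (30%) were enriched and 7 (70%) depleted (4 and 3 when centred), beside 40.9% and 40.5% of the genes tested. Ccr1 (3.29) and Ccr2 (2.18) were highest and Cx3cr1 (−3.60) lowest. Ccr1 and Ccr2 guide monocytes into inflamed tissue. Ccr2 stood at 159.8, 158 and 168 CPM in Input and at 737, 721 and 744 in IP. Inflammatory cytokines showed 4 enriched (36.4%) and 6 depleted (54.5%) genes of 11 (6 and 4 when centred). Csf1, the macrophage growth factor, had the highest ratio (3.32), and its receptor Csf1r was depleted by 2.45 on the log2 scale, from 2206, 2218 and 2159 CPM in Input to 395, 391 and 416 in IP. Both IL-12 subunit genes were low, Il12b at −4.80 and Il12a at −4.65. Tnf (−1.15) and Il1b (−0.40, above 0 when centred) were depleted too. Suppressive effectors ranged from Arg1 (5.02) and Pdcd1lg2 (1.91) to Ptgs2 (−4.06) and Il10 (−6.10), and the transcript of PD-L1, Cd274, was close to 0 (−0.12, above 0 with library totals alone or centring). Il10 had a mean of 0.406 CPM in Input and 0.00432 in IP, so that its ratio rests on few counts. Of 21 Toll-like receptor genes and adaptors 9 (42.9%) were enriched and 10 (47.6%) depleted (13 and 5 when centred). Tlr4, the endotoxin receptor, went from 55.3, 53.5 and 59.3 CPM in Input to 315, 316 and 328 in IP (ratio 2.51, SE 0.03, edgeR adjusted p 3.7e-24). Tlr1, a partner of TLR2, had −2.98.

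The lists of antigen presentation and of lysosomal cathepsins had medians below that of the genes tested, with members on both sides. The counts below stand beside 40.9% enriched and 40.5% depleted over the genes tested. Those marked as centred stand beside 9511 enriched and 3464 depleted of 15468 genes. Of 10 MHC class II genes 5 were enriched and 5 depleted. The antigen-binding chains H2-Aa (−1.45), H2-Eb1 (−1.38) and H2-Ab1 (−0.75) and the invariant chain Cd74 (−0.77) were depleted, whereas the peptide loading genes H2-DMa (1.02) and H2-DMb1 (0.23) and the master regulator Ciita (0.88) were enriched. H2-Ab1 and Cd74 stayed below 0 under each scaling tried. Of 15 MHC class I genes 3 were enriched and 11 depleted (11 and 3 when centred), from Pdia3 (0.52) to Tapbp (−1.24). Of 12 tested cathepsins 3 were enriched and 9 depleted (5 and 6 when centred), with Ctsd (−1.29), Ctsb (−1.28) and Ctss (−1.11) low. Of 3 C1q genes C1qa was enriched (0.45) and C1qb (−0.62) and C1qc (−0.77) were depleted, C1qb being above 0 when centred. Interferon-stimulated genes showed 10 enriched and 15 depleted genes of 30 (19 and 8 when centred), from Zbp1 (1.69) and Isg15 (1.39) to Irf7 (−1.64) and Oas3 (−2.09). Of 8 S100 genes 5 were enriched and 3 depleted, S100a10 (1.38) being highest and the neutrophil alarmins S100a8 (−1.56) and S100a9 (−1.68) lowest. Lyz2, the lysozyme of myeloid cells and the most abundant nuclear transcript, had a mean of 22413 ± 323 CPM in Input and 15884 ± 404 in IP (SD, n = 3 each), a ratio of −0.50 that was above 0 when centred.

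Housekeeping lists differed from each other as well. Their shares called stand beside 40.9% enriched and 40.5% depleted over the genes tested. Counts marked as centred stand beside 9511 enriched and 3464 depleted of 15468 genes. Glycolysis (50% and 44.4%) and translation factors (49.2% and 40%) had shares of similar size. The 13 mRNAs of the mitochondrial genome, which are not methylated by the nuclear writer complex, were depleted in 13 of 13 cases with a median of −2.92 (−2.25 when centred) and no consensus peak. The best covered of them, mt-Co1, fell from 4249.9, 4106 and 4412 CPM in Input to 223, 216 and 215 in IP (ratio −4.29, SE 0.03, edgeR adjusted p 1.6e-29). The nuclear genes of the respiratory chain lay above the median of the genes tested, with 55 of 79 enriched and 14 depleted (75 and 1 when centred). Cytosolic ribosomal protein genes lay below it, with 21 of 85 enriched and 61 depleted (53 and 20 when centred). Rpl10 (−1.66) had the lowest ratio of these, and members of this family share reads with pseudogenes. Genes of cholesterol synthesis and uptake were enriched in 15 of 20 cases and depleted in 3 (median 0.71), led by Mvd (1.77) and Pmvk (1.46) of the mevalonate pathway, whereas the sterol sensor Scap (−1.62) and the factor Srebf2 (−0.87) were depleted. Zinc finger genes named Zfp were enriched in 231 of 320 cases and depleted in 41 (median 0.82). Chromatin regulators were enriched in 6 of 34 cases and depleted in 26 (16 and 15 when centred), from Ezh2 (0.62) to Kdm6b (−2.04) and Chd3 (−2.90). Glycolysis (9 enriched and 8 depleted of 18, or 14 and 3 when centred), proteasome subunits (23 and 10 of 38, or 36 and 1), translation factors (32 and 26 of 65, or 52 and 7) and replication-dependent histones (18 and 8 of 56, or 31 and 2) had medians between −0.02 and 0.22. Of 15 tested lncRNAs 3 were enriched and 5 depleted (9 and 3 when centred). Malat1, a nuclear lncRNA, fell from 1099, 1129 and 1119 CPM to 299, 306 and 298 (ratio −1.89, SE 0.02, edgeR adjusted p 5.2e-25), and Neat1 had 0.31.

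**Figure D3:**
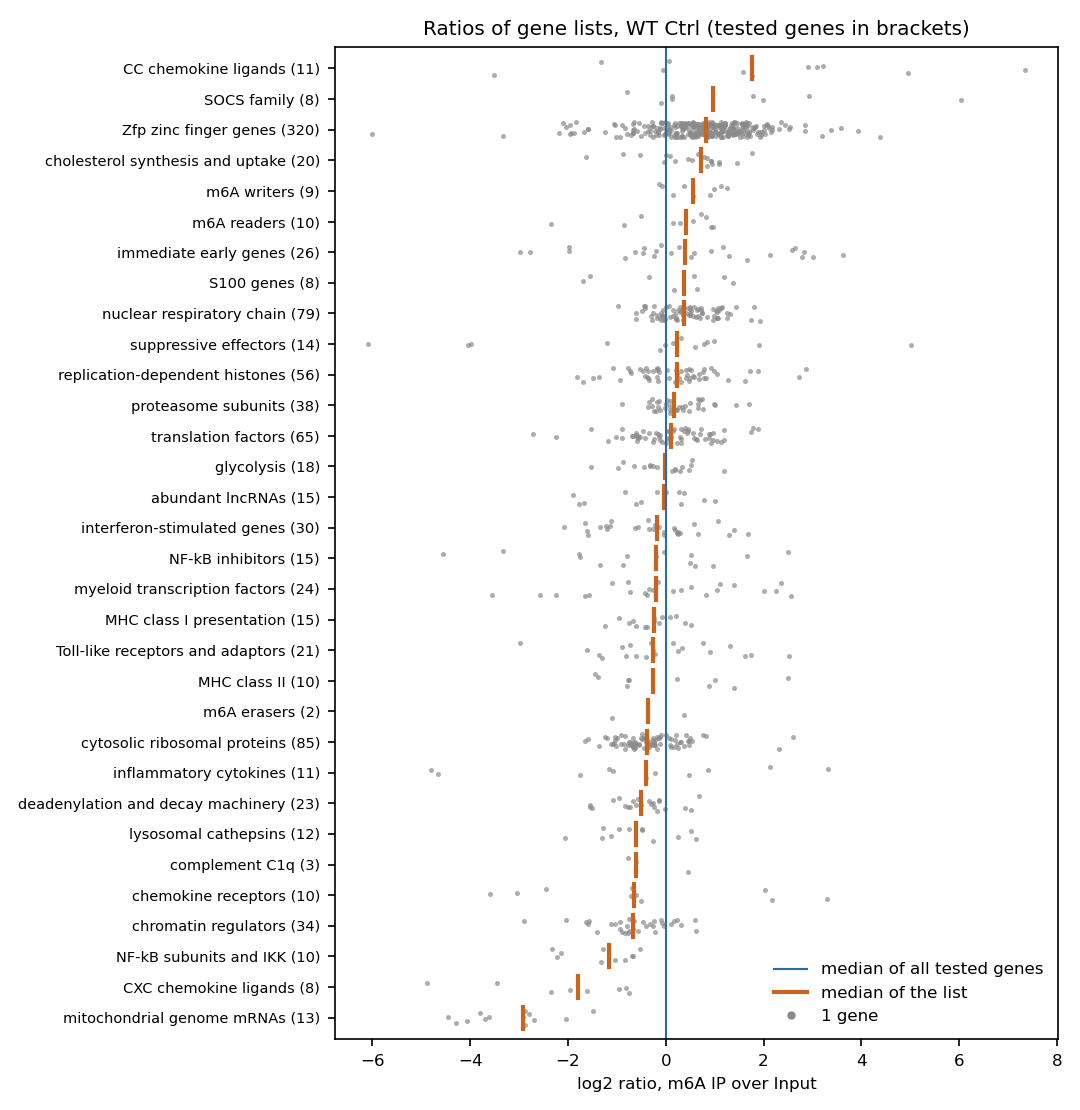
Each grey point is the log2 ratio of m6A IP over Input of 1 tested gene in WT Ctrl, grouped by gene list with the number of tested genes in brackets, with the list's median in orange and the median of the genes tested in blue (cell type markers and the regulators named in the study's text are not drawn). Of the lists drawn, CC chemokine ligands, the SOCS family and Zfp genes have the highest medians and mitochondrial mRNAs, CXC ligands and NF-kB subunits the lowest, while scalings other than TMM would move every point by the same shift.

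Gene structure went with the ratio only weakly. Across 12592 coding genes with 1 transcript per gene, Spearman's rho with the ratio was −0.30 for the number of exons, −0.23 for spliced length, −0.06 for the longest exon and 0.04 for GGACT sites per kilobase. These values are across genes, which are not independent replicates, and 11 features were looked at. Genes with 1 to 5 exons had a median ratio of 0.54, and 34.6% of them were enriched at least 2-fold. Genes with 15 to 312 exons had a median of −0.50, and 9.66% were enriched at least 2-fold. By spliced length the medians of 4 classes of equal size were 0.29, 0.19, −0.04 and −0.43 from short to long. By GGACT density they were 0.02, −0.07, −0.06 and 0.16 from sparse to dense. Intron-poor genes were thus higher than intron-rich ones, and the density of the motif in a transcript told little about its ratio.

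The deposited peaks give a view within genes. The 3 WT Ctrl IP lists held 17408, 17415 and 17608 peaks, with median folds over the authors' control of 3.502, 3.45 and 3.42. A consensus peak, found in all 3 lists where peaks of one strand shared at least 1 base, was seen in 12181 places, and 4682 of the tested genes held one in the exons of their chosen transcript. Peaks and gene counts come from the same IP libraries and are not independent. Of the enriched genes 65.6% held a consensus peak, of the depleted genes 4.47%, and of the genes depleted at least 2-fold 0.276%. Seen from the peaks, 88.7% of the 4682 genes were enriched and 5.98% depleted. The median ratio was 0.90 with a consensus peak and −0.46 without one.

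How often a gene held a peak depended on both its ratio and its level. Over all tested genes the share with a consensus peak was 8.67% for ratios of −1 to 0, 48.6% for 0 to 1, 68.7% for 1 to 2, 58.2% for 2 to 4 and 33.0% above 4, so that it was lower again among the largest ratios. In genes with a mean of at least 20 CPM, a limit set after the values were known, it was not lower there. That mean includes the IP level, so genes of large ratio passed through IP, the signal on which peaks were called. The shares at both ends are thus partly set by the limit. A consensus peak was held by 99.5% of 955 genes with a ratio of 1 to 2, by 79.5% of 2216 with 0 to 1, by 15.3% of 2288 with −1 to 0 and by 0.806% of 992 with −2 to −1. The part of the exons that lay under consensus peaks grew in the same order. Its median among peak-holding genes was 5.63% for ratios of −1 to 0, 15.9% for 0 to 1, 46.4% for 1 to 2, 69.1% for 2 to 4 and 81.4% above 4. All 12 genes with the largest ratio held consensus peaks and none of the 12 with the smallest did. The peaks of Ccl17 covered 99.4% of its 514-base transcript, those of Plet1 97.6%, of Rnase2a 93.8%, of Mgl2 89.97%, of Car4 81.7% and of Cish 69.0%. Peaks of this extent cover coding sequence and UTR alike and mark no single place. In 1046 of the 4682 genes (22.3%) at least 50% of the exon length lay under consensus peaks, and in 1094 (23.4%) under 10%.

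**Figure D4:**
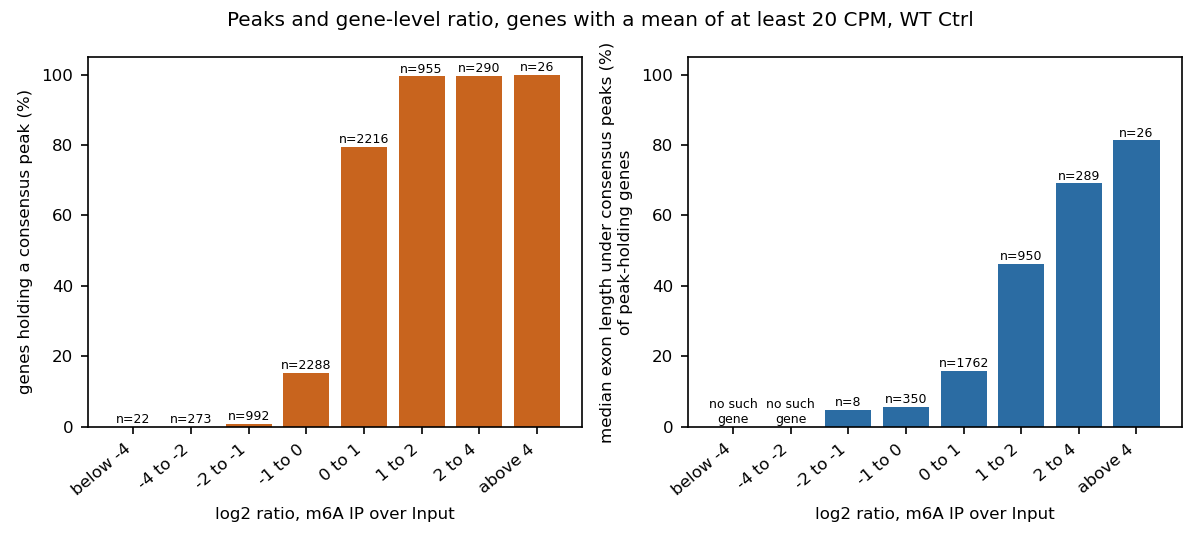
For genes with a mean of at least 20 CPM, grouped by log2 ratio of m6A IP over Input, bars show the percentage holding a consensus peak (left, all genes of the class) and the median percentage of exon length under consensus peaks (right, peak-holding genes), with the number of genes above each bar. The left bars rise from 0% below −2 to 79.5% at 0 to 1 and 99.5% at 1 to 2, and the right bars from 4.82% at −2 to −1 to 81.4% above 4. The mean includes the IP level on which peaks were called, so the limit partly sets both ends.

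The place of the peak summits within transcripts depended on how much of the transcript was covered. On 1 transcript per tested coding gene, 8573 summits of consensus peaks were placed, of which 74.5% lay in coding sequence, 20.3% in the 3′ UTR and 5.19% in the 5′ UTR, while the same transcripts were 53.7%, 37.9% and 8.46% coding sequence, 3′ UTR and 5′ UTR by length. Within 200 bases of the stop codon lay 24.8% of summits and 15% of positions. In transcripts of which under 10% was covered, 29.7% of 1178 summits were that close to the stop codon, against 11.6% of positions. With 10 to 50% covered the shares were 26.5% of 4893 summits and 14.7% of positions, and with at least 50% covered 19.3% of 2502 summits and 17.2% of positions. The last 200 coding bases stood out most, with 3.46 times as many summits as by length in thinly covered transcripts and 1.46 times in widely covered ones. From each list's own summits the shares near the stop codon were 25.5 to 26.1% in thinly covered transcripts and 18.2 to 19.1% in widely covered ones. The classes were built from the consensus of the same 3 lists, so the lists are no independent check of this difference. These classes were chosen after the data had been seen and no test was made.

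**Figure D5:**
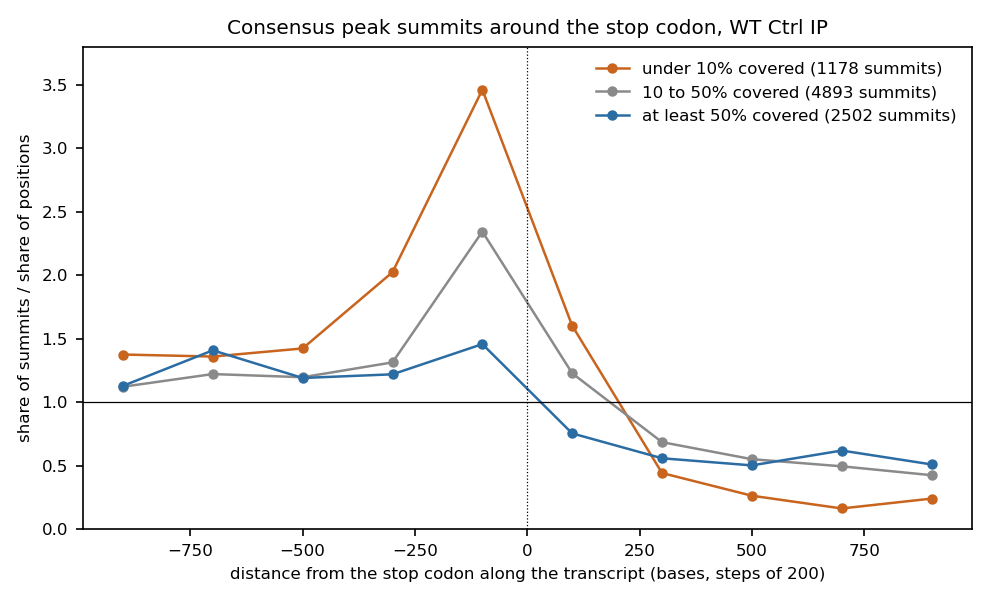
Lines give, in steps of 200 bases along the spliced transcript, the share of consensus peak summits divided by the share of transcript positions at that distance from the stop codon (0, dotted), for transcripts with under 10%, 10 to 50% and at least 50% of their length under consensus peaks. The step just before the stop codon reaches 3.46 in thinly covered transcripts and 1.46 in widely covered ones, and all 3 lines lie below 1 from 200 bases after it.

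The motif was looked for in windows of 101 bases, 50 to each side of the summit, on the strand of the spliced transcript. GGACT was found in 16.4% of 1736 windows in the 3′ UTR and in 12% of 6385 in coding sequence, and in 10.1% of all such windows over the transcripts of tested coding genes, sampled every 25 bases. Moving the window by 350 bases changed the share in the 3′ UTR to 10.7% upstream and 8.81% downstream, and in coding sequence to 11% and 10.6%. The shorter GGAC, which GGACT contains, was found in 38.7% and 40.5% of the summit windows and in 33.1% of all windows. By coverage class GGACT was found in 12.6%, 12.2% and 14.4% of the summit windows from thin to wide. Earlier looks at the same windows split by fold and by gene ratio were made too, so that 4 splits were tried in all, and none is given as a finding.

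Short sequences are shown as examples from widely and from thinly covered transcripts. The first set was picked for lacking GGAC and the second for holding GGACT, so the 2 sets do not compare the motif. They were read from the RefSeq assembly of GRCm38, 5′ to 3′ on the strand of the transcript, with T for U. Of the 12 genes with the largest ratio, 9 had no GGAC within 50 bases of the highest summit on the chosen transcript and 3 had one. For 3 of the 4 of these with the highest folds, 29 bases centred on the summit are given, with the 5 bases at the summit in capitals. The remaining gene, Plet1, had a mean fold of 56.5 and a stretch that crossed an exon border. They lie in exon 3 of 3 of Cish (chr9:107300374-107300402, plus strand, coding), exon 2 of 2 of Rnase2a (chr14:51255603-51255631, minus strand, coding) and the single exon of Adra2a (chr19:54048537-54048565, plus strand, 3′ UTR).
Cish: actggggttctaTTACAgccagcgaggcc
Rnase2a: aaattgtcatgaTAGTTcaaatcgggtac
Adra2a: tgtttctatcttGTCTGtgcgccgccccc
The mean folds of these peaks over the 3 lists were 43.9, 30.5 and 24.5.

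The next 4 sites belong to the highest peaks within 200 bases of a stop codon in transcripts covered by under 10%. Their genes had a mean of at least 20 CPM. They were picked for holding GGACT, which the capitals mark. It lay 43 bases from the summit in Cwc27, 46 in Mrs2, 18 in Dip2c and 41 in Nmi. They lie in the last coding exon of Cwc27 (exon 14, chr13:104631662-104631690, minus strand), Mrs2 (exon 11, chr13:24993100-24993128, minus strand), Dip2c (exon 37, chr13:9665835-9665863, plus strand) and Nmi (exon 8, chr2:51948683-51948711, minus strand).
Cwc27: tgcaagcatgcaGGACTcagacacatttg
Mrs2: ctcaggccggaaGGACTtggagcaagcag
Dip2c: gcaggaagccttGGACTtggttcccttgg
Nmi: ggagactggggaGGACTtactcaacatcc
Their peaks had mean folds of 5.48, 4.76, 4.11 and 4.08, and the gene ratios were 0.84 for Cwc27, 0.33 for Mrs2, 0.56 for Dip2c and 0.72 for Nmi. The place, width and motif of these peaks were fixed by the choice, and the sites are shown as examples.

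Peaks of 2 study-named regulators are shown because the study treats them as targets. Metrnl held GGACT 27 bases from its highest summit, in exon 2 of 4. Tnfaip8l2 held GGAC 7 bases from its own, in the 3′ UTR of exon 2 of 2. In the lines below the motif is in capitals.
Metrnl (chr11:121707883-121707911, plus strand): caagcctttcagGGACTcctctggagcca
Tnfaip8l2 (chr3:95139661-95139688, minus strand): acccgaggaaggGGACactaaaggccac
Mean folds of these peaks were 2.39 and 3.46, and that of the highest Smpdl3b peak was 6.18. Consensus peaks covered 93.5% of the Tnfaip8l2 transcript, 59.6% of Smpdl3b and 52.2% of Metrnl. Ythdf2 had 4 consensus peaks over 41.2% of its transcript, the highest with a mean fold of 3.73 and no GGAC within 50 bases.

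The contrast most like this one is IP over Input in cKO Ctrl, which shares no library with it. The cKO label was checked first. Ythdf2 itself stood at 197 ± 6.76 CPM in the Inputs labelled cKO Ctrl and at 106 ± 1.40 in WT Ctrl, with scaling over the 12 Ctrl libraries, and thus went against the label at the level of whole-gene counts, which do not separate the floxed part of the gene. In IP it stood at 183 ± 9.02 against 207 ± 5.24. Lyz2, which carries the Cre gene in cKO mice, stood at 331 ± 4.26 CPM in cKO Ctrl Input and 22538 ± 329 in WT Ctrl Input, and at 88.1 ± 2.56 and 16019 ± 408 in IP (SD, n = 3 each), so the Ctrl IP libraries followed the Lyz2 level of their label. The libraries labelled cKO are named so by label only.

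The order of the ratios was largely shared. Across 14980 genes tested in both, Pearson's r was 0.92 and Spearman's rho 0.93, across genes that are not independent replicates. Of the genes enriched at least 2-fold in WT Ctrl 84.7% were so in cKO Ctrl, and of those in cKO Ctrl 87.6% were so in WT Ctrl. Of the genes depleted at least 2-fold the shares were 83.0% and 84.2%. Of 12278 genes called in WT Ctrl 198 were called with the opposite sign in cKO Ctrl. The test of the difference in one edgeR fit of the 12 Ctrl libraries found 2030 genes (12.4% of 16388) with a higher ratio in cKO Ctrl and 2540 (15.5%) with a lower one, and 630 (3.84%) differed at least 2-fold. The median size of the difference was 0.22, against a median size of the WT Ctrl ratio of 0.85. Of the called differences 44.4% were higher in cKO Ctrl with TMM, 48.3% with RLE, 55.9% with library totals and 34.6% with centring, so the balance of directions rests on the scaling.

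Single genes nevertheless differed by more than the spread of the libraries. Ythdf2 had a ratio of 0.96 in WT Ctrl and −0.11 in the libraries labelled cKO Ctrl, a difference of −1.07 (SE 0.05, edgeR adjusted p 1.4e-17). Il1b, an inflammatory cytokine, had a ratio of −0.40 in WT Ctrl and −1.89 in cKO Ctrl, a difference of −1.48 (SE 0.05). Its Input level was 152 ± 6.20 CPM in WT and 256 ± 4.28 in cKO, whereas its IP level was 115 ± 2.88 and 69.4 ± 3.99 (SD, n = 3 each), so the Input and IP levels differed between the genotypes in opposite directions. Oasl2, an interferon-stimulated gene, had ratios of 0.16 and −1.44, with Inputs at 18.6 ± 0.857 and 57.0 ± 1.11 CPM and IP libraries at 20.8 ± 1.03 and 21.1 ± 1.25. Ltf, lactoferrin of neutrophil granules, had −3.50 in WT Ctrl and −1.86 in cKO Ctrl, its Input falling from 836 ± 4.18 to 284 ± 4.52 CPM with IP levels of 74.2 ± 3.23 and 78.2 ± 2.63. Fabp4, a lipid chaperone of macrophages, had −2.83 and −1.16, with Inputs of 73.1 ± 2.004 and 69.8 ± 1.52 CPM and IP libraries of 10.3 ± 0.423 and 31.4 ± 0.401. The differences of Oasl2 and Ltf thus went with the Input level and that of Fabp4 with the IP level.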

How the data were processed

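The deposited gene values were HTSeq read counts made by the authors. Per the methods and the submitters' processing notes, reads were trimmed (Trimmomatic 0.39), aligned with HISAT to mm10 with GENCODE annotation and counted by gene, and peaks were called with MACS2 on each strand separately. The deposited peak files give a fold (ratio) over the control, −log10 p and q values and a score made by MACS2. The library used as control was not given in the sources used here. The peak lists were used for the WT Ctrl IP libraries only. Lines that name no gene were left out: reads in no feature made up 5.21 to 5.30% (Input) and 2.97 to 3.19% (IP), and ambiguous reads 2.35 to 2.46%.

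Counts were fitted with edgeR 4.0.16 (R 4.3.3): TMM factors (0.915 to 0.919 in Input, 1.09 to 1.10 in IP), quasi-likelihood test, Benjamini-Hochberg adjustment over all genes tested, threshold 0.05, and no replicate block. The code was tested on simulated data. SE was the size of the log2 ratio divided by the square root of F. The difference between genotypes was the interaction term in the 12 Ctrl libraries, with a separate fit of the 6 cKO Ctrl libraries for its own ratio. Counting intervals are exact, at 95%, and cover counting error only. Replicates differed by more than sampling noise, so none was a copy of another's counts. This cannot tell if the replicates were technical or biological. Gene models were GENCODE annotation of GRCm38, with 54409 of 54446 identifiers matched and 1 transcript per gene. Consensus peaks were built with bedtools 2.31.1. Sequences came from the RefSeq assembly of GRCm38.

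Genes were named by rule: the 12 largest and 12 smallest ratios among called protein-coding and lncRNA genes with a mean of at least 20 CPM and no overlap of library types, the members of the lists (in lists of over 15 tested genes the 2 highest and 2 lowest), the genes the study's text names, and the 5 largest differences between genotypes in each direction. Genes named otherwise, such as those whose sites near a stop codon are shown, were chosen after their values were seen. The members and lists were chosen with earlier results of these data known. Exon coverage, ratio classes, distances from the stop codon, motif windows and ranges over 12 Inputs and 12 IP libraries were added after the data were seen. Alternatives were RLE factors, library totals, centring of IP on genes without a peak, other count filters, DESeq2 1.42.0, all 24 libraries in 1 fit, the replicate number as a block, leaving out each library, and other peak definitions. Some genes and sequences are not reported here.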

Additional observations from a re-analysis of the deposited data

Results flagged for a closer look

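The log2 ratio of IP over Input differed between cKO Ctrl and WT Ctrl by edgeR's test of the difference in the 10 genes with the largest differences in either direction. It was higher in cKO Ctrl by 1.67 for Fabp4, 1.66 for Ahnak2, 1.65 for Ffar2, 1.64 for Ltf and 1.58 for C77080. The difference was −1.64 for Tmem176a, −1.60 for Oasl2, −1.56 for Asgr2, −1.48 for Il1b and −3.18 for Car4. For Car4 the WT Ctrl Inputs held 1 count in all, and the difference had an edgeR adjusted p of 0.014, which ranged up to 0.06 over its alternatives. For Ffar2, a receptor for short-chain fatty acids, the Input level was 4.34 ± 0.436 CPM in WT Ctrl and 1.83 ± 0.425 in cKO Ctrl, and the IP level 88.6 ± 2.79 and 118 ± 3.32 (SD, n = 3 each). For Tmem176a, a membrane protein of dendritic cells and macrophages, the Inputs were at 84.7 ± 0.279 and 99.6 ± 1.56 CPM and the IP libraries at 15.3 ± 1.09 and 5.75 ± 0.3903.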

How the results depend on the processing

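The scaling mattered most. With IP centred on the genes without a peak, 9511 genes were enriched and 3464 depleted, 5968 and 1689 of them at least 2-fold. Centring put C1qb at 0.045, Cbll1 at 0.52, Ccl3 at 0.60, Cd274 at 0.54, Ikbke at 0.14, Il1b at 0.26, Lyz2 at 0.17, Mettl3 at 0.58, Socs3 at 0.56 and Tnfaip3 at 0.63, above 0 in each case. Library totals alone put Cbll1 at 0.10, Ccl3 at 0.19, Cd274 at 0.12, Mettl3 at 0.17, Socs3 at 0.14 and Tnfaip3 at 0.22, and the fit of all 24 libraries put Tnfaip3 at 0.0037. With the replicate number as a block, 6235 genes were enriched and 6163 depleted, and 1974 and 2486 differed between genotypes. Samples of the same number did not deviate together (r of −0.03, −0.008 and −0.10). Paired libraries whose spread is technical could look the same, so this cannot decide if the numbers pair them. Leaving out 1 library gave 5948 to 6046 enriched and 5780 to 6067 depleted genes, 2946 to 3126 and 2829 to 3178 at least 2-fold, and 1833 to 2256 and 1995 to 2465 differences between genotypes. The difference of Car4 was −2.75 without WT Ctrl Input replicate 1 (adjusted p 0.059), −2.71 without WT Ctrl Input replicate 2 and −2.73 without cKO Ctrl Input replicate 1 (adjusted p 0.06 for both). Socs3 lost its call without IP replicate 1 (−0.06). A fold of at least 4 left 3719 consensus peaks, held by 34.8% of enriched and 0.0958% of depleted genes, and any peak in any list was held by 79.5% and 16.5%. Leaving out a list gave 13648 to 13712 peaks. The rho of the longest exon was −0.065 at 50 counts or more. Calls of ratios near 0 (Cbll1, Mettl14, Socs4, Socs5, Oasl2, Ccl3, Tnfaip3) came and went with single libraries or tools. The cause of these changes was not tested. Depth limits genes at few counts, such as Car4 in Input and Il10 in IP.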
